A study of Mus musculus with 12 samples.

Results

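A set of 10 genes that mark macrophages or encode the complement protein C1q was followed in adrenal gland RNA of Ftz-F1 transgenic mice, each measured against a wild-type littermate. The members are Aif1, C1qa, C1qb, C1qc, Irf8, Csf1r, Cd68, Marco, Mrc1 and Cybb, and they were found by their symbol in the platform's probe-to-gene table. Of the 10 genes, 9 matched, each with 1 probe, among 25344 probes of which 21082 carried a single gene. Csf1r, which encodes the receptor for the macrophage growth factor CSF1, matched no probe and was not analysed here.

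The mice came from 1 transgenic line (line #56), in which a yeast artificial chromosome, YAC in the labels, adds copies of Ftz-F1 (Nr5a1), the gene of the nuclear receptor SF-1. The 3 pairs of 10-day-old mice, numbered 11, 13 and 15 after the transgenic mouse, carried 1 transgene copy (heterozygous), and the 3 pairs of 4-month-old mice, numbered 1, 3 and 5, carried 2 copies (homozygous). The mice of pairs 15 and 5 were females, and those of the remaining 4 pairs males. Each wild-type mouse shared sex and age with its transgenic littermate, and each pair was measured on 2 arrays of opposite dye labelling, 12 arrays in all. The arrays of a pair are technical repeats, so the pair is the replicate. Age and copy number changed together and cannot be told apart, and a single line cannot separate copy number from the place of insertion. The sources used here give no strain. All values are log2 ratios between the 2 mice of a pair, corrected for the dye trend of the array. The sources used here do not state whether the deposited ratio is transgenic over wild type or its inverse, so a negative ratio means less RNA in the transgenic mouse if it is the first and more if it is the second. Signs are given as deposited.

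Macrophages live in the adrenal cortex and medulla, where they engulf dying cells and sample their surroundings. They depend on the CSF1 receptor and on transcription factors such as PU.1 and IRF8. They are also a main source of C1q, whose A, B and C chains assemble into the molecule that starts the classical complement pathway. In whole-gland RNA, a different number of macrophages and a different amount of RNA per macrophage cannot be told apart, in either direction.

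The spots of the cortical genes Cyp11a1 and Star were brighter than those of 98.3% and 98.6% of probes, and the spot of the medullary gene Th than those of 88.1%. Brightness depends on the probe, so it shows that adrenal transcripts were detected and ranks no transcript. Empty spots made up 4.30% to 6.59% of an array, and precision is limited by the 3 pairs in each group. Nr5a1 itself had a ratio of -0.67 ± 0.11 (SD, n = 3) at 10 days and -0.19 ± 0.29 (SD, n = 3) at 4 months, with adjusted p = 0.327 and 0.568 in limma. The sources used here do not say whether its probe detects the transgene's transcript, so the value does not settle the direction. Pair 3 stood apart in its immune cell genes, and the means and counts of the members are also given without it. At 10 days the median of a hepatocyte gene list was 1.82 in pair 11 and 0.12 in pairs 13 and 15. That of an adipocyte gene list was 1.89 in pair 15, -0.15 in pair 11 and 0.23 in pair 13. The part of these genes' tissues in the differences between the ages was not tested.

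At 4 months the ratios of 6 of the 9 measured genes were negative in every measured pair, and at 10 days the same genes lay around 0. The most negative of the 6 were Aif1, which encodes an actin-binding protein of macrophages and microglia, C1qb, C1qc and Irf8. No gene passed the threshold over the 21513 features tested, neither at 10 days nor at 4 months nor for the difference between the ages (0.00% of features in each, adjusted p under 0.05 in limma). At an unadjusted p under 0.05 limma had 1794 features at 10 days, 2646 at 4 months and 982 for the difference. An ordinary linear model also called 0 features in each, with 1689, 2280 and 1021 at an unadjusted p under 0.05. At this unadjusted level in limma, 6 of the 9 genes were negative at 4 months, against 6.21% of all features. In the same fit 5 of 9 were lower at 4 months than at 10 days, against 2.39%. At 10 days 0 of 9 reached this level in either direction, against 8.34% of features. The counts of members were lower in the ordinary linear model. In it C1qa at 4 months (unadjusted p = 0.068) and C1qb for the difference (unadjusted p = 0.0555) did not reach this level. The members and the lists were chosen with earlier results of these data known. Here and below, an excess over the share of all features may therefore be partly built into the choice. Such shares describe the genes and do not test them.

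**Figure D1:**
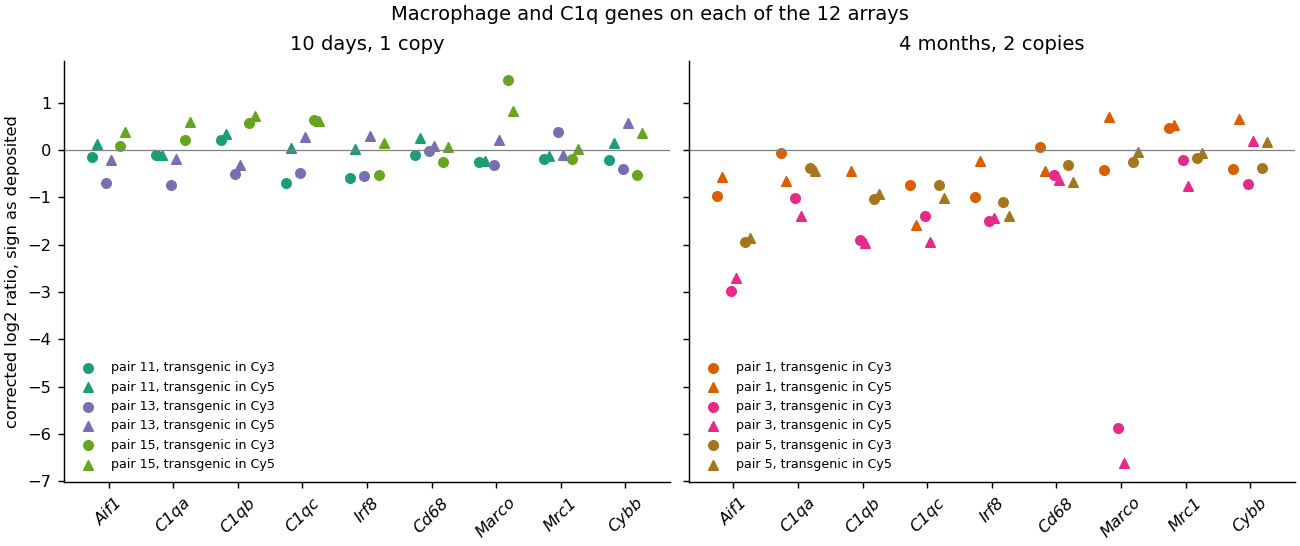
Corrected log2 ratio (vertical axis, sign as deposited) of the 9 measured genes on each array, at 10 days (left) and 4 months (right), with 1 colour per pair, circles where Cy3 labelled the transgenic sample and triangles where Cy5 did. At 4 months Aif1, C1qa, C1qb, C1qc and Irf8 lie below 0 on every measured array, and Marco is far below 0 in pair 3 alone, at -5.88 and -6.62.

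Irf8 encodes a transcription factor that directs progenitors to monocytes and dendritic cells. Its ratios at 10 days were -0.28, -0.12 and -0.19 in pairs 11, 13 and 15, and those at 4 months -0.60, -1.47 and -1.24 in pairs 1, 3 and 5. All 6 pairs were negative, and every 4-month pair lay below every 10-day pair. The mean was -0.20 ± 0.08 (SD, n = 3) at 10 days and -1.11 ± 0.45 (SD, n = 3) at 4 months, a 2.15-fold ratio at the older age, with adjusted p = 0.208 at 4 months. The difference between the ages was -0.91 (SE 0.23, adjusted p = 0.933). Irf8 ranked 13 of 21513 features by p at 4 months. At 10 days the dye orientations disagreed, since the 3 arrays on which Cy3 labelled the transgenic sample lay from -0.59 to -0.53 and the 3 on which Cy5 did from 0.03 to 0.30, while at 4 months all 6 arrays were negative.

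Aif1 had ratios of 0.00, -0.44 and 0.24 in pairs 11, 13 and 15, and of -0.77, -2.84 and -1.90 in pairs 1, 3 and 5. The 10-day pairs lay on both sides of 0, and the 4-month pairs all lay below them, with pair 3 the lowest. The 4-month mean was -1.84 ± 1.04 (SD, n = 3), a 3.57-fold ratio, with adjusted p = 0.208, against -0.07 ± 0.35 (SD, n = 3) at 10 days. The spread between the 4-month pairs was wide, but all 6 arrays were negative, from -2.98 to -0.57. In the whole numbers recovered from the arrays on which Cy3 labelled the transgenic sample, the channels of pair 3 read 1618 and 9501, and those of pair 5 read 1927 and 7054, in lowest terms (the scanned values were these or a common multiple). The difference between the ages was -1.77 (SE 0.47, adjusted p = 0.933).

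Cd68 encodes a glycoprotein of macrophage lysosomes. Its ratios were 0.08, 0.03 and -0.09 in pairs 11, 13 and 15 and -0.19, -0.57 and -0.50 in pairs 1, 3 and 5. The groups did not overlap, but the sizes were the smallest of the 6 genes, with a 4-month mean of -0.42 ± 0.20 (SD, n = 3, adjusted p = 0.265) and 5 of 6 arrays negative. The difference between the ages was -0.43 (SE 0.16, adjusted p = 0.933). Aif1, C1qb, C1qc, Irf8 and Cd68 were thus the 5 genes of 9 whose measured 4-month pairs all lay below every 10-day pair, against 5.63% of all features.

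The 3 C1q chains are encoded side by side on mouse chromosome 4, in the order C1qb, C1qc, C1qa. C1qc had ratios of -0.33, -0.10 and 0.62 in pairs 11, 13 and 15 and of -1.16, -1.67 and -0.88 in pairs 1, 3 and 5. Its 4-month pairs lay closer together than those of Aif1, with a mean of -1.24 ± 0.40 (SD, n = 3, adjusted p = 0.208) and 6 of 6 arrays negative. The difference between the ages was -1.30 (SE 0.29, adjusted p = 0.933), and C1qc ranked 31 of 21513 features by p at 4 months.

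C1qb had ratios of 0.28, -0.41 and 0.65 in pairs 11, 13 and 15, and of -1.93 and -0.99 in pairs 3 and 5. Pair 1 gave no pair value because the spot was empty on 1 of its arrays, and the other array of that pair read -0.44. From the 2 complete pairs the fit gave -1.46 (SE 0.30, adjusted p = 0.233) at 4 months and a difference between the ages of -1.63 (SE 0.38, adjusted p = 0.933). With the single array of pair 1 kept, an alternative added after the data were seen, the 4-month mean was -1.12 (adjusted p = 0.267).

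C1qa had the smallest 4-month ratios of the chains, with -0.36, -1.20 and -0.40 in pairs 1, 3 and 5, against -0.11, -0.46 and 0.41 in pairs 11, 13 and 15. The groups overlapped, because pair 13 lay below pairs 1 and 5. The 4-month mean was -0.65 ± 0.48 (SD, n = 3, adjusted p = 0.307), with 6 of 6 arrays negative, and the difference between the ages was -0.60 (SE 0.29, adjusted p = 0.933). All 3 chains were therefore negative on every measured 4-month array, as were Aif1 and Irf8, 5 genes of 9 against 4.10% of all features.

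Genes next to the C1q cluster had mixed ratios at 4 months. Epha8, which follows C1qa, was at 0.08, and Tex46 and Lactbl1, which lie before C1qb, were at 0.10 and 0.03. Zbtb40 was at -0.44 and Wnt4, a signal of the outer cortex, at -1.10, with -2.19 in pair 1, -0.70 in pair 3 and -0.40 in pair 5. Ephb2 lies between Lactbl1 and C1qb and was not tested.

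The promoters of 4 of the genes with the most negative 4-month ratios are shown. Each is given as the 250 bases before the start site, 5′ to 3′ on the strand of the gene, from RefSeq on GRCm38.p6. These genes were negative in every measured 4-month pair, but their ratios were not alike across pairs. C1qc was lower in pair 1 than in pair 5, Aif1 and Irf8 were the reverse, and C1qb had no value in pair 1. Capitals mark GAGGAA or its reverse complement TTCCTC, the core of sites bound by the macrophage factor PU.1. C1qb lies at chr4:136886201-136886450, minus strand, C1qc at chr4:136892915-136893164, minus strand, Aif1 at chr17:35176053-35176302, minus strand, and Irf8, shown from the first of its 2 start sites in the table, at chr8:120736108-120736357, plus strand.
C1qb: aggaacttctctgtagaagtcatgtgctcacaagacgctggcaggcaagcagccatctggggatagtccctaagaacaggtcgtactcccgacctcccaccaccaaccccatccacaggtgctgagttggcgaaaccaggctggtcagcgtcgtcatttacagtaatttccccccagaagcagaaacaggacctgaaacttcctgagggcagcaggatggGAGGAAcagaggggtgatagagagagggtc
C1qc: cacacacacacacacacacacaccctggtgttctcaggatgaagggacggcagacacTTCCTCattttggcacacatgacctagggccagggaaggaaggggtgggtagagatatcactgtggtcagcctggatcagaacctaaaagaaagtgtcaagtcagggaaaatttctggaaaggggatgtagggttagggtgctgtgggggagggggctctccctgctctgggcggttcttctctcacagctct
Aif1: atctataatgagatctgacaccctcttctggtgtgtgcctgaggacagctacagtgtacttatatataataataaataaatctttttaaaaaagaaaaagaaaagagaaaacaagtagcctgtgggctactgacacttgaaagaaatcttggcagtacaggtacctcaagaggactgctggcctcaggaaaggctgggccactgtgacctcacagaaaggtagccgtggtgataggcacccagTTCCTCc
Irf8: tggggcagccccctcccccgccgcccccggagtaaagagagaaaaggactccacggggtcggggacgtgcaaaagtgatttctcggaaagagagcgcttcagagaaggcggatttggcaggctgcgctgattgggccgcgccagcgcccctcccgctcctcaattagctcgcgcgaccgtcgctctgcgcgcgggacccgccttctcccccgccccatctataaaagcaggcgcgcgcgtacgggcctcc

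The match begins 30 bases before the start site in C1qb, 193 in C1qc and 7 in Aif1, and the Irf8 window holds none. The table held 9 windows of 8 of the genes, and C1qa was among those without an entry. At least 1 match on either strand was in 6 of the 9 windows, against 23.3% of the 32851 windows of the same length. Marco, Cd68 and Mrc1 were the other 3 with a match, and Mrc1, whose ratio stayed near 0, held 3. Patterns longer than this core were searched too, on both strands, and can overlap it. The composite PU.1 and IRF pattern, GGAA and GAAA in that order with 2 bases of any kind between them, was in 0 of the 9 windows, against 2.3% of all windows. The IRF pattern, GAAA repeated with 2 bases of any kind between, was in 2 of the 9, those of Aif1 and Cybb, against 2.98%. A match describes letters in a window, not a bound site, and the absence of one in Irf8 and Cybb says only that the letters of the core are not in their windows.

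Marco, Mrc1 and Cybb did not share the pattern. Marco encodes a scavenger receptor of macrophages that line lymphoid tissue, among them the marginal zone of the spleen. Its ratios were -0.23, -0.05 and 1.15 in pairs 11, 13 and 15 and 0.15, -6.25 and -0.15 in pairs 1, 3 and 5. Pair 3 alone carried the 4-month mean of -2.08 ± 3.61 (SD, n = 3, adjusted p = 0.47), and the mean was 0.00 (SE 0.31) without it. In the whole numbers of pair 3 the second channel read at least 21805, against 296 for the first in lowest terms.

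Mrc1 encodes the mannose receptor CD206 of resident macrophages. Its ratios were -0.16, 0.15 and -0.08 in pairs 11, 13 and 15 and 0.51, -0.48 and -0.11 in pairs 1, 3 and 5. The pairs lay on both sides of 0 at both ages, with means of -0.03 ± 0.16 and -0.03 ± 0.50 (SD, n = 3, adjusted p = 0.979 and 0.96). The difference between the ages was 0.00 (SE 0.25).

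Cybb encodes the catalytic subunit of the phagocyte NADPH oxidase. Its pair values stayed within -0.26 and 0.14 in all 6 pairs, with means of -0.01 ± 0.09 at 10 days and -0.07 ± 0.20 at 4 months (SD, n = 3, adjusted p = 0.993 and 0.807). The single arrays lay further from 0. Each of the 6 arrays on which Cy3 labelled the transgenic sample was negative, from -0.72 to -0.20, and each of the 6 on which Cy5 did was positive, from 0.15 to 0.67. The sign went with the dye orientation, which cannot be told apart from the date in the array descriptions. Its spot was also dim, at a signal of 174.9, and 25.2% of probes were dimmer.

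**Figure D2:**
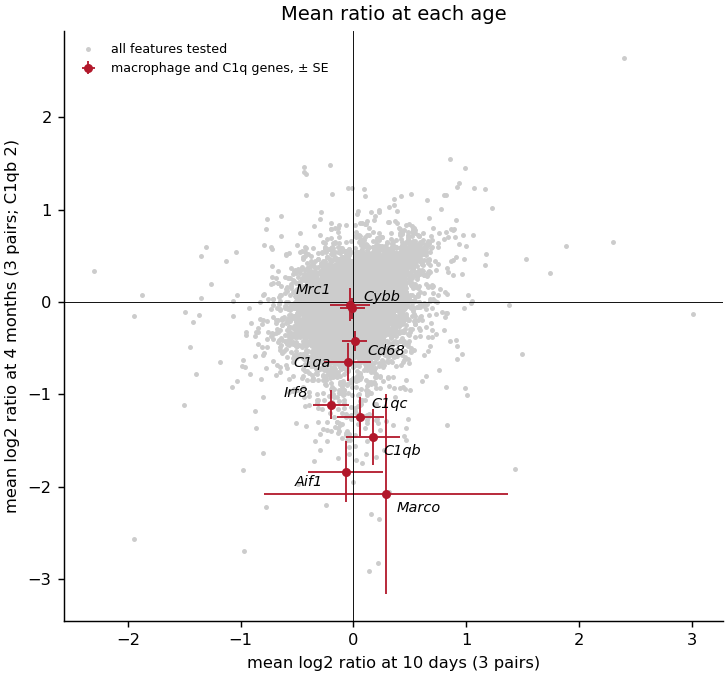
Mean log2 ratio at 10 days (horizontal axis) against 4 months (vertical axis) for all 21513 features tested (grey) and for the 9 measured genes (red, bars ± SE from the fit). Aif1, C1qb, C1qc and Irf8 lie below -1 at 4 months and within 0.20 of 0 at 10 days, Mrc1 and Cybb lie at the centre, and Marco has by far the widest bars.

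Set against the other features, 7 of the 9 genes lay in the lowest 5% of 4-month means, and Mrc1 and Cybb did not. Without pair 3 it was 3 of 8, namely Aif1, C1qc and Irf8. The percentile of the 4-month mean was 0.0372 for Marco, 0.0558 for Aif1, 0.158 for C1qb, 0.358 for C1qc, 0.474 for Irf8, 1.71 for C1qa and 4.77 for Cd68. Without pair 3 it was 0.115 for Aif1, 0.282 for C1qc, 0.392 for Irf8, 5.59 for C1qa, 7.05 for Cd68 and 51.4 for Marco. The median of the 9 genes was -1.11 at 4 months and -0.01 at 10 days, where the median of all features was -0.01 at both ages. In every measured 4-month pair 6 of 9 genes were negative, against 18.1% of features, while in every 10-day pair 1 of 9, Irf8, was, against 17.1%.

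The pairs did not contribute equally. The median was -0.27 in pair 1, over the 8 genes measured there, and -1.47 and -0.50 in pairs 3 and 5, over all 9, and pair 3 held the lowest 4-month value for 9 of 9 genes, against 33.0% of features. Without pair 3, limma again called 0.00% of features at 4 months and for the difference, with 1854 and 798 at an unadjusted p under 0.05. At that level 4 of the 8 genes still tested were negative at 4 months (against 4.43%) and 3 were lower at 4 months than at 10 days (against 2.06%). These 4 were Aif1 at -1.34 (SE 0.27), C1qc at -1.02 (SE 0.23), Irf8 at -0.92 (SE 0.17) and Cd68 at -0.34 (SE 0.13), with adjusted p from 0.504 to 0.555. The 3 that differed between the ages were Aif1 at -1.27 (SE 0.35), C1qc at -1.09 (SE 0.29) and Irf8 at -0.73 (SE 0.22), each with adjusted p = 0.991. Each SE comes from the fit, which shares the spread over both ages, so it does not measure the spread between pairs 1 and 5. C1qa moved from -0.65 to -0.38, Marco to 0.00, Mrc1 to 0.20 and Cybb to 0.02. C1qb had too few complete pairs for a test, and with the single array of pair 1 kept its mean without pair 3 was -0.72 (adjusted p = 0.536).

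**Figure D3:**
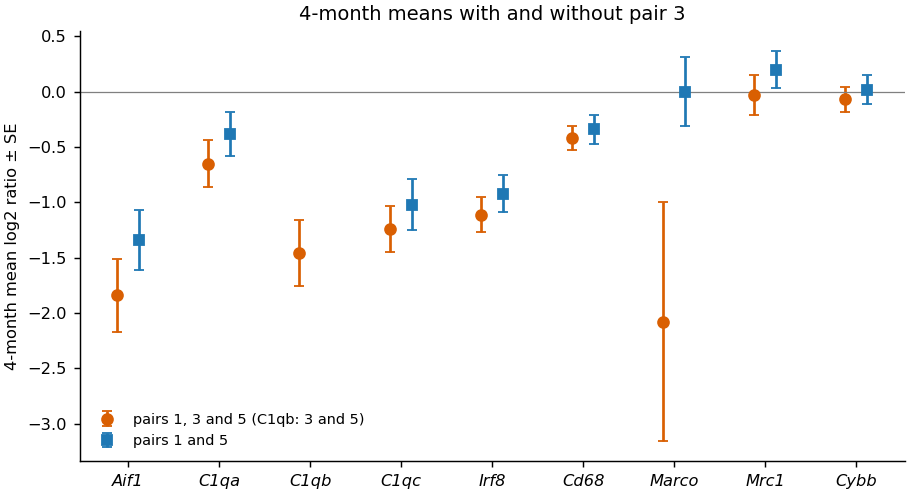
Mean log2 ratio at 4 months (vertical axis, bars ± SE from the fit) of each gene over all measured pairs (circles) and over pairs 1 and 5 (squares, not available for C1qb). Aif1, C1qc, Irf8 and Cd68 stay below 0 without pair 3, at -1.34, -1.02, -0.92 and -0.34, and Marco moves from -2.08 to 0.00.

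The list medians of lymphoid cell markers were lowest in pair 3. The B-cell list (6 of 8 genes tested) had a median of -3.84 in pair 3, while pair 1 was at -0.06 and pair 5 at -0.11, and from -0.04 to 0.02 in the 10-day pairs. Cd22, which encodes a surface receptor of B cells, was at -4.18 in pair 3 and Ms4a1 at -1.75, while Pax5, named after its values were seen, was at -0.12. The T-cell list (7 of 10) was at -1.40 in pair 3 and at -0.03 and -0.02 in pairs 1 and 5. Cd3d was at -1.51 and Cd3e at -1.98 in pair 3. Cd3g, named after its values were seen, was at 1.22, -0.04 and -0.18 in pairs 1, 3 and 5. The list of lymphoid stroma and follicles (8 of 8) was at -2.03 in pair 3, with pair 1 at -0.24 and pair 5 at 0.04. Ltb, a lymphotoxin gene, was at -5.50 in pair 3, -0.70 in pair 1 and -1.89 in pair 5. It was also negative at 10 days, at -0.93, -0.68 and -1.32 in pairs 11, 13 and 15. In pair 3 Cr2 was at -0.07 and Madcam1 at 0.17, both named after their values were seen. The neutrophil list (8 of 9) was at -0.42 in pair 3, with pair 1 at 0.38 and pair 5 at -0.03. Their part in the macrophage result of pair 3 was not tested. The spot of the B-cell gene Cd79a was dim, at a signal of 90, and 2.97% of probes were dimmer. A list median near 0 therefore does not show that lymphoid content was equal in a pair. In pairs 1 and 5, where the B-cell and T-cell medians lay between -0.11 and -0.02, the members were mixed. Aif1 was at -0.77 and -1.90 there, C1qc at -1.16 and -0.88, Irf8 at -0.60 and -1.24, C1qa at -0.36 and -0.40 and Cd68 at -0.19 and -0.50. Marco was at 0.15 and -0.15 in these pairs, Mrc1 at 0.51 and -0.11 and Cybb at 0.14 and -0.10, and C1qb, measured in pair 5 alone, at -0.99.

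MHC class II genes, which macrophages share with B cells and dendritic cells, were negative in all 3 older pairs. Of the 7 tested, 7 were negative at 4 months, against 11191 of 21513 features. At an unadjusted p under 0.05, 5 were negative (against 6.21% of all features), and 4 without pair 3 (against 4.43%). The list medians were -0.31, -1.47 and -0.43 in pairs 1, 3 and 5. H2-Eb1 was at -0.94 ± 0.52 and H2-Ab1 at -1.72 ± 0.96 (SD, n = 3, adjusted p = 0.21 and 0.223). At 4 months the list medians were -0.80 for MHC class II, -1.30 for B cells and -0.52 for T cells. They were -0.58 for lymphoid stroma and follicles and -0.06 for neutrophils. Without pair 3 the same medians were, in that order, -0.38, -0.15, -0.09, -0.10 and 0.20. The remaining lists of cell types had medians nearer 0 than that of MHC class II, or above 0. These medians at 4 months were -0.10 for endothelium (9 genes), 0.03 for cortex (8), 0.75 for chromaffin cells (8), 0.09 for erythroid cells (6), 0.16 for hepatocytes (7), -0.01 for adipocytes (6) and -0.16 for mast cells (5). Of the 8 chromaffin genes, 5 were positive and 1 negative at an unadjusted p under 0.05 in limma, against 6.09% and 6.21% of all features.

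**Figure D4:**
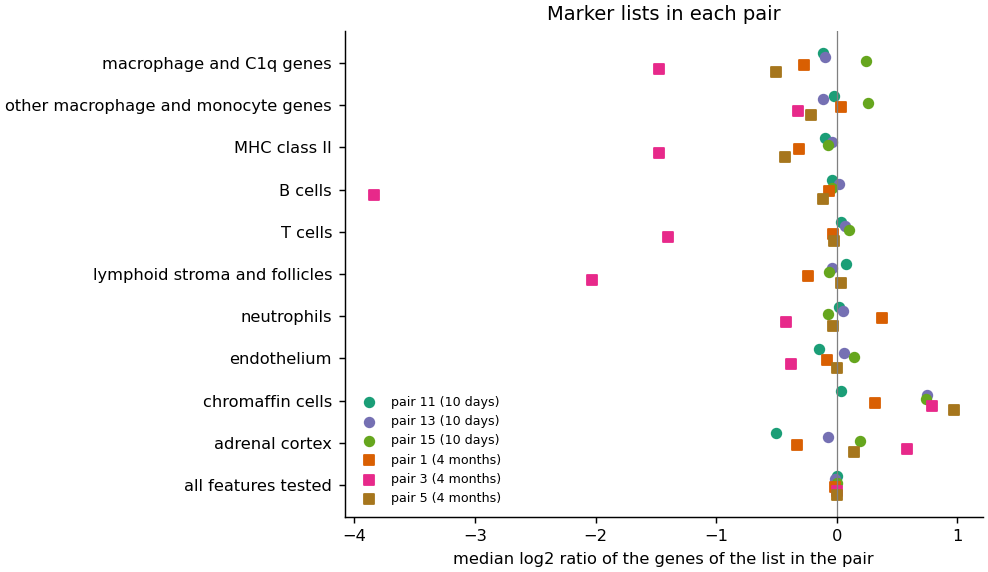
Median log2 ratio (horizontal axis) of each marker list in each pair, circles for 10 days and squares for 4 months. The B-cell median reaches -3.84 in pair 3 alone, while the median of the macrophage and C1q genes is below 0 in all 3 older pairs (-0.27, -1.47 and -0.50).

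Beyond the 9 genes, macrophage genes were mixed. Of 32 tested of 34 listed, 22 were negative at 4 months, against 11191 of 21513 features. The median was -0.25, while limma called 0 over all features. At an unadjusted p under 0.05, 11 of 32 were negative and 2 positive, against 6.21% and 6.09% of all features. Without pair 3 the negative count was 7 of 30, against 4.43% of features. At 10 days 12 of 32 were negative, against 11062 of 21513 features, with a median of 0.04. Ms4a7, a membrane protein gene of resident macrophages, was at -0.72, -2.09 and -1.90 in pairs 1, 3 and 5, a mean of -1.57 ± 0.74 (SD, n = 3, adjusted p = 0.208), against -0.04 ± 0.26 at 10 days. Ctss, which encodes the lysosomal protease cathepsin S, was at -1.39 ± 1.06, the inhibitory Fc receptor gene Fcgr2b at -0.89 ± 0.63 and Adgre1, a widely used macrophage surface marker, at -0.81 ± 0.56 (SD, n = 3, adjusted p from 0.263 to 0.273). Without pair 3 these 4 were at -1.31, -0.84, -0.54 and -0.62. Several macrophage genes had no such ratio. Spi1, the gene of PU.1, was at -0.10, the fractalkine receptor gene Cx3cr1 at 0.09 and the efferocytosis receptor gene Mertk at -0.13. The adaptor gene Tyrobp was at 0.29 and the haemoglobin receptor gene Cd163 at 0.40. The 2 positive at an unadjusted p under 0.05 were Cd14 and Vsig4. In pairs 1, 3 and 5 Cd14 was at 0.74, 0.94 and 0.16, and Vsig4 at 0.33, 0.22 and 0.25. The genes from Spi1 to Vsig4 were named after their values were seen.

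Of the growth factor axis that includes Csf1r, 7 of 8 listed genes were tested and 0 passed in limma, with 1 negative and 1 positive at an unadjusted p under 0.05, against 6.21% and 6.09% of all features. The ligand gene Il34 was at -1.02, -0.19 and -0.93 in pairs 1, 3 and 5, a mean of -0.71 ± 0.46 (SD, n = 3, adjusted p = 0.249). It was thus negative in all 3 pairs and least so in pair 3, the reverse of Aif1 and Irf8. Csf2rb, a shared receptor subunit gene, was at 0.33 ± 0.07, Kit at -0.29 ± 0.05 and Csf3r at -0.15 ± 0.37 (SD, n = 3, adjusted p = 0.326, 0.448 and 0.744).

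Complement genes outside C1q had a median of -0.11 at 4 months. Of 23 tested of 29 listed, 17 were negative, against 11191 of 21513 features, and 0 passed the threshold in limma. At an unadjusted p under 0.05, 3 of 23 were negative, against 6.21% of all features. Without pair 3 it was 1 of 23, near the share of all features (4.43%). Cfb, Cd55 and Cfp, named after their values were seen, were low in pair 3 alone, at -2.73, -2.00 and -1.20, and lay between -0.13 and 0.69 in pairs 1 and 5. C4b, which encodes a component cleaved downstream of C1, was at -1.63, -0.79 and -0.09 in pairs 1, 3 and 5, with adjusted p = 0.379. Masp1, a protease gene of the lectin pathway, was at -0.44 ± 0.31, C8a at -0.37 ± 0.30 and the C1 inhibitor gene Serping1 at -0.35 ± 0.23 (SD, n = 3, adjusted p = 0.297, 0.346 and 0.489). The list of C1q domain genes, which also holds the gene of the C1q-binding protein C1qbp, had a 4-month median of -0.04 over 18 of 20 genes. In it Cbln3 was at 0.59 ± 0.35, C1ql3 at 0.21 ± 0.12, C1ql2 at -0.15 ± 0.12 and Emilin1 at -0.18 ± 0.24 (SD, n = 3, adjusted p from 0.262 to 0.562).

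Among the relatives of Irf8, 6 of 7 tested were negative at 4 months, against 11191 of 21513 features, with a median of -0.49. At an unadjusted p under 0.05, 4 of 7 were negative, against 6.21% of all features, with 0 past the threshold in limma. Irf7, a regulator of interferon genes, was at -1.24, -1.89 and -0.67 in pairs 1, 3 and 5, a mean of -1.27 ± 0.61 (SD, n = 3, adjusted p = 0.208), and at 0.21 ± 0.42 at 10 days. Irf3 was at -0.59 ± 0.49, Irf4 at -0.49 ± 0.51 and Irf9 at -0.47 ± 0.40 (SD, n = 3, adjusted p from 0.323 to 0.366). The family median of -1.07 in pair 3 compares with -0.15 for pair 1 and -0.08 for pair 5. Without pair 3 only 1 of 7 was negative at an unadjusted p under 0.05, against 4.43% of features.

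The oxidase list held partners of Cybb in the phagocyte enzyme and its homologues Nox1, Nox3 and Nox4. Of 8 tested, 6 were negative at 4 months, against 11191 of 21513 features, and 0 passed in limma. At an unadjusted p under 0.05, 3 of 8 were negative, against 6.21% of all features. Without pair 3 it was 1 of 8, against 4.43% of features. Rac2, a GTPase gene of blood cells, was at -0.20, -4.43 and -0.44 in pairs 1, 3 and 5, and Cyba at -0.21, -1.61 and -0.18, so their means of -1.69 and -0.67 (adjusted p = 0.39 and 0.375) were at -0.32 and -0.20 without pair 3. Ncf1 was at -0.26 ± 0.14 and Nox1 at -0.23 ± 0.27 (SD, n = 3, adjusted p = 0.371 and 0.485). Nox4, named after its values were seen, was at 0.34, -0.31 and -2.05 in pairs 1, 3 and 5.

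The list of scavenger and lectin receptors other than Marco and Mrc1 had a 4-month median of -0.24 over 16 genes. Of these 13 were negative, against 11191 of 21513 features. The list also holds the lysosomal membrane protein genes Lamp1, Lamp2 and Lamp3, and shares Msr1 and Cd163 with the macrophage list. At an unadjusted p under 0.05, 4 of 16 were negative and 1 positive, against 6.21% and 6.09% of all features. Without pair 3, 1 of 16 was negative, near the share of all features (4.43%). Scara5, a ferritin receptor gene of stromal cells, was at -1.70, -1.68 and 0.28 in pairs 1, 3 and 5 (adjusted p = 0.326), and passed without pair 5, at -1.69 with adjusted p = 0.0499. Scarb1, which takes up cholesterol from lipoproteins in cortical cells, was at 0.38 ± 0.27, Colec12 at -0.31 ± 0.07 and Cd36 at -0.31 ± 0.26 (SD, n = 3, adjusted p from 0.325 to 0.367).

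The dye-swapped arrays bore differently on each gene. Over all features the median absolute difference between the arrays of a pair was 0.33, and it was 0.14 for C1qb, 0.16 for Mrc1, 0.29 for Aif1, 0.33 for Cd68, 0.39 for C1qa, 0.60 for Marco, 0.64 for C1qc, 0.65 for Irf8 and 0.91 for Cybb. The arrays of a pair had the same sign in 6 of 6 pairs for C1qa, 5 of 6 for Aif1, 5 of 5 for C1qb, 4 of 6 for C1qc, Marco and Mrc1, 3 of 6 for Irf8, 2 of 6 for Cd68 and 0 of 6 for Cybb. Aif1 and Cybb had the higher ratio on the Cy5 array in all 6 pairs, which 16.1% of features measured on all 12 arrays did. With arrays of a single orientation, Aif1 at 4 months was at -1.97 (Cy3, adjusted p = 0.0348) and -1.71 (Cy5, 0.0353), and Irf8 at -1.19 (Cy3, adjusted p = 0.01) and -1.02 (Cy5, 0.046). With the transgenic sample in Cy5, C1qc at -1.52 and Cd68 at -0.58 also passed (adjusted p = 0.0125 and 0.0447). A single orientation leaves any dye effect of the probe in the ratio, and it called 288 features in Cy3 and 915 in Cy5 at 4 months, against 0 with both.

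The genes whose 6 pair values were most like the mean of the 8 genes measured in all pairs were Gimap9, Laptm5, Lyz1, Ifngr1, Selplg, Gvin1, Napsa and Ptpn18, with Pearson r from 0.98 to 0.99 among 1431 named genes with an SD of at least 0.5. They are described by likeness alone, with no test, and pair 3 sets most of it. In that pair Selplg was at -3.10 and Laptm5, a lysosomal membrane protein gene of blood cells, at -2.89, while pair 5 had -0.88 and -0.91, and pair 1 had -0.70 and -0.16. Over the 5 pairs without pair 3 the most alike were Adgre1, Ctss, Fcgr2b, Ces1d and Cd83, with r from 0.98 to 0.99. Of these Adgre1 was at -0.17 and -1.07 in pairs 1 and 5 and at 0.18, 0.07 and 0.81 in pairs 11, 13 and 15.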

How the data were processed

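Log2 ratios of the 2 channels for 25344 spots on 12 arrays were used as the authors deposited them. Base 2 was tested on the values: raising 2 to a value gave a quotient of whole numbers up to 65535 for 100% of spots on the 6 full-precision arrays (relative tolerance 1e-13), against at most 0.417% with base e and 0.664% with base 10. Neither scanner, background correction nor normalization by the authors was stated in the sources used here. Array medians as deposited lay away from 0 (-0.68 to -0.22 with the transgenic sample in Cy3, 0.74 to 1.50 in Cy5). All arrays of an orientation share a date in their descriptions, so dye and date cannot be told apart.

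The dye trend of every array was removed with loess (span 0.3) on spot signal, the 75th percentile over those 6 arrays of the geometric mean of the recovered whole numbers. Probes of a gene were averaged, and both arrays of a pair had to be measured. Features with at least 2 pairs per group (21513, of which 17882 named genes) were fitted in limma 3.58.1 (R 4.3.3) with a mean per group. Tests were two-sided, with p-values adjusted by Benjamini-Hochberg over all features at 0.05. Whether both columns of a pair run the same way was checked after the mean of each orientation was taken off: arrays of the same pair correlated at 0.23 to 0.66, those of different pairs at -0.28 to 0.12. The procedure was tested on simulated data. Genes came from the platform's annotation table (21082 probes with 1 gene, 30 with several, 4232 with none). Of the 21082, 20456 had their gene identifier in RefSeq.

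Named were all members, the 4 genes with the smallest p at 4 months per list of related genes, and the 8 and 5 genes most alike. Of the cell type lists, the 2 such genes were named for B cells, T cells and MHC class II, and Ltb for lymphoid stroma. Other cell type lists are given by their medians. Further genes are marked where they were named after their values were seen. The members and lists were chosen with earlier results of these data known. Alternatives were each pair left out, each dye orientation alone, median centring, loess span 0.6, an ordinary linear model, sex in the model, features on all 12 arrays and probes on their own. Pairs are separate mice, and the 2 arrays of a pair are technical repeats.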

Additional observations from a re-analysis of the deposited data

How the results depend on the processing

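At 4 months Aif1, C1qa, C1qb, C1qc, Irf8 and Cd68 were negative under every alternative run, from -2.37 to -1.34 for Aif1, -1.52 to -0.96 for C1qc, -1.47 to -0.72 for C1qb, -1.36 to -0.92 for Irf8, -0.83 to -0.38 for C1qa and -0.58 to -0.26 for Cd68. Where both arrays of a pair were required, C1qb could not be fitted without pair 3 or pair 5 or on features measured on all 12 arrays. Its value of -0.72 is the fit without pair 3 with single arrays kept, an alternative added after the data were seen.

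No feature passed at 10 days or 4 months with both dye orientations and all pairs. With arrays of a single orientation the counts were 31 (Cy3) and 222 (Cy5) at 10 days and 288 and 915 at 4 months, where a dye effect of the probe would not cancel. Leaving out a pair gave 0 to 1 features at 10 days (Top1mt, without pair 11) and 0 to 5 at 4 months (Atg101, Dusp14, Scara5, Tmem178 and a probe without a gene, without pair 5), named after their values were seen except Scara5. For the difference between the ages no alternative gave a feature.

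Signs changed in 23 of 141 values at 10 days, 7 of 141 at 4 months and 7 of 141 for the difference, each with a reported value between -0.20 and 0.29, and the cause was not tested. At 10 days with the transgenic sample in Cy3, C1qc was at -0.18, Cd68 at -0.12 and Mrc1 at 0.01, and with it in Cy5, Aif1 and C1qa at 0.11, Irf8 at 0.16 and Cybb at 0.36. With median centring C1qb was at -0.04, C1qc at -0.06, Cd68 at -0.02 and Cybb at 0.07, and with sex in the model C1qa was at 0.04 and Cd68 at -0.02. At 4 months Mrc1 was at 0.04 in Cy3 and Cybb at 0.35 in Cy5. The age difference of Mrc1 was -0.02 in Cy5 and 0.00 with span 0.6. With single arrays kept and without pair 3, an alternative added after the data were seen, Mrc1 was at 0.20 and Cybb at 0.02 at 4 months, and the age difference of Cybb at 0.03. Leaving out a pair moved 10-day means over 0 for Aif1 (-0.22 to 0.12), C1qa (-0.28 to 0.15), C1qb (-0.07 to 0.46), C1qc (-0.22 to 0.26), Cd68 (-0.03 to 0.05), Marco (-0.14 to 0.55), Mrc1 (-0.12 to 0.03) and Cybb (-0.05 to 0.03). It did so at 4 months for Mrc1 (-0.30 to 0.20) and Cybb (-0.18 to 0.02) and for the difference for Mrc1 (-0.26 to 0.23) and Cybb (-0.17 to 0.03).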
